A study of Mus musculus with 6 samples.

Results

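The 10 genes described here encode transcription factors of the oligodendrocyte lineage: Sox10, Sox8, Olig1, Olig2, Nkx2-2, Nkx6-2, Zfp488, Tcf7l2, St18 and Myrf. They were chosen by gene symbol, and each symbol matched 1 of the 32285 genes in the count matrix. Single-nucleus RNA sequencing (snRNA-seq) was performed on forebrain, flash frozen at postnatal day 16, from 6 mice, of which 3 were WT and 3 Npc1-/-. No mouse was treated. The Npc1-/- mice carry a germline loss of the cholesterol transporter NPC1 (the Npc1 nih allele) in every cell, on a hybrid of the BALB/cJ and C57BL6/J backgrounds, and WT animals were littermates. A single matrix joined 6 libraries, numbered 1 to 6 in the barcodes, without a key to the mice. WT and Npc1-/- nuclei are therefore pooled here, and values are given over all nuclei with the range over the libraries.

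Myelin in the brain is laid down around axons by oligodendrocytes. Along their lineage, 4 stages are told apart here by marker genes: progenitor cells that can still divide (OPCs), committed precursors (COPs), newly formed oligodendrocytes (NFOLs) and mature oligodendrocytes that hold myelin (MOLs). The factors act at different points of that path. OLIG2, OLIG1, SOX10 and SOX8 are basic helix-loop-helix and SOX proteins present through most of the lineage, with SOX10 needed for terminal differentiation. NKX2-2 and the zinc finger protein ZFP488 promote the exit from the progenitor state. TCF7L2, a DNA-binding partner of beta-catenin in Wnt signaling that also recruits repressors, is known for its short window of expression in differentiating cells. ST18 is a zinc finger protein of the MYT1 family. MYRF is a membrane-bound factor that is cleaved to enter the nucleus and drives myelin genes, and NKX6-2 is a homeodomain protein of myelinating cells.

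In the GENCODE M21 annotation of GRCm38, all 10 were protein-coding genes. They lay at chr15:79154908-79165240 for Sox10, chr17:25565892-25570686 for Sox8, chr16:91225457-91228677 for Olig2, chr16:91269772-91271933 for Olig1, chr2:147177546-147194243 for Nkx2-2, chr7:139579376-139582797 for Nkx6-2, chr14:33967070-33978764 for Zfp488, chr19:55741820-55933654 for Tcf7l2, chr1:6487231-6860940 for St18 and chr19:10208272-10240748 for Myrf. St18 (373710 bases, 1.73% exonic) and Tcf7l2 (191835 bases, 4.57% exonic) were the longest. Olig1, with 2162 bases, was exonic throughout. Reads of nuclear RNA come from introns as well as exons, so levels were compared between nuclei for the same gene and not between genes. Olig2 and Olig1 were neighbors on the same strand of chromosome 16, with 41094 bases and 1 other annotated gene between them.

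RefSeq windows of the 250 bases before a transcription start (GRCm38.p6) were matched for 6 of the 10 genes: Nkx2-2, Nkx6-2, Zfp488, Olig2, Sox8 and Tcf7l2, the last with 2 starts. Windows for Tcf7l2, Zfp488 and Nkx6-2 are shown because these genes differed by more than 2-fold between NFOLs and MOLs and had a window free of exons, the first 2 in one direction and Nkx6-2 in the other. They are written 5′ to 3′ on the strand of the gene, and capitals mark the SOX motif ACAATG, which reads CATTGT from the other strand. The windows lay at chr19:55741560-55741809 on the plus strand, at chr14:33978765-33979014 on the minus strand and at chr7:139582798-139583047 on the minus strand.
Tcf7l2: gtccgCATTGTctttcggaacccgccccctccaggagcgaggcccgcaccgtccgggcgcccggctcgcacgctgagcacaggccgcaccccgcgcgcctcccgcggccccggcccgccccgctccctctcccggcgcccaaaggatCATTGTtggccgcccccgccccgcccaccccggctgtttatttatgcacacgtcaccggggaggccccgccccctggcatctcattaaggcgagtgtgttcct
Zfp488: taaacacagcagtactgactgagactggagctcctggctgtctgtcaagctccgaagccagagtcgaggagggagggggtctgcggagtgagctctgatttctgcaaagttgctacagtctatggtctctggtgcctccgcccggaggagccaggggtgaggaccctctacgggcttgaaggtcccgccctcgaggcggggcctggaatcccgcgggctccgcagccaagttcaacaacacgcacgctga
Nkx6-2: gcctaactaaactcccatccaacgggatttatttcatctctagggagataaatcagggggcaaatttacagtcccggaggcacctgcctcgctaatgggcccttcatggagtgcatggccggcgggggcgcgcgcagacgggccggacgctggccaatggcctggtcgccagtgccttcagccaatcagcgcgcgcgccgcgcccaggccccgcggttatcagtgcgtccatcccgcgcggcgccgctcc
The Tcf7l2 window shown held 2 matches to the SOX motif, beginning 245 and 103 bases before the start. The window of its other start, at chr19:55895071-55895320, was also free of exons, is not shown and held 0 matches. The Zfp488 and Nkx6-2 windows held none. Of the 7 windows of the 6 genes, 2 held the SOX motif, and 10.7% of 32851 RefSeq windows of the same length did. The TCF/LEF motif CTTTGAT and the E-box CAGCTG were searched on both strands too and were found in 0 of the 7 windows, against 3.21% and 13.0% of all windows. A match of letters is a description of the window and not a binding site.

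To place each nucleus at a stage, 16 gates were cut from lists of marker genes that contained none of the 10 factors. A nucleus entered the gate whose list was most enriched, at least 3-fold over all nuclei, with at least 3 UMIs (unique molecular identifiers, each counted as 1 captured transcript) of at least 2 markers. Of 75867 nuclei, 29878 (39.4%) entered a gate, 41773 (55.1%) entered none, and 4216 (5.56%) met a second, unrelated list and were set aside. The lineage gates held 2859 OPCs, 381 COPs, 1314 NFOLs and 2660 MOLs, with a median of 3623, 4472, 4338 and 4448.5 UMIs per nucleus. Each library held 277 to 625 OPCs, 35 to 90 COPs, 72 to 383 NFOLs and 90 to 947 MOLs. Every own marker was at least 2-fold enriched in its gate (6 of 6 for OPCs, 4 of 4 for COPs, 6 of 6 for NFOLs and 10 of 10 for MOLs). The same markers set the gates, so this enrichment was largely built in and cannot check the stage names. Of the 10 leading genes of each gate, own markers were 3 for OPCs, 4 for COPs, 2 for NFOLs and 1 for MOLs. Markers of another list were 1 for COPs, 1 for NFOLs and 0 for OPCs and MOLs. The gates are ranges along a path: 721 OPCs, 112 COPs, 216 NFOLs and 429 MOLs had an enrichment of 3 to 4, just above the limit, and 596, 30, 386 and 869 nuclei lay between 2 and 3. COPs also held the OPC list at 660 CPM (UMIs scaled to 1000000 UMIs of the gate) and the NFOL list at 1051, with their own at 858. The lists hold different genes, so their sums are not on the same scale. In OPCs the NFOL list stood at 501 CPM and the COP list at 165. The MOL list stood at 245 CPM in OPCs, between 54.9 and 409 over the libraries, and at 259 to 416 in the non-neuronal gates outside the lineage. Interneuron markers stood at 2518 CPM in OPCs, 1153 in COPs, 822 in NFOLs and 465 in MOLs. In the non-neuronal gates outside the lineage they ran from 387 (astrocytes) to 718 (microglia). The part of these markers in the levels of the factors was not tested. The 6 libraries held 8217 to 16118 barcodes and 51343653 to 107583300 UMIs. Between libraries, 631 barcode sequences recurred (1264 nuclei, 115 of them in the lineage), and no ratio of the factors crossed 2-fold without these nuclei.

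Sox10, which marks the whole lineage, was present at every stage and, over all nuclei, highest in NFOLs. Over the libraries, OPCs held 120 to 234 CPM (median 188), COPs 96.6 to 282 (median 225), NFOLs 197 to 403 (median 281) and MOLs 96.0 to 225 (median 161). These ranges overlapped, but within each of the 6 libraries NFOLs stood above MOLs. NFOLs stood above COPs in 5 of 6 libraries and just below them in library 6. The log2 ratio of NFOL over COP was 0.64 (95% interval 0.49 to 0.78). Over all nuclei the level was 178, 205, 318 and 171 CPM from OPC to MOL. The log2 ratio of MOL over NFOL was -0.90 (95% interval -0.98 to -0.82, from 2617 and 2181 UMIs), short of 2-fold. OPCs and MOLs were close, with a log2 ratio of -0.06 (-0.14 to 0.02), although MOLs stood below OPCs in 6 of 6 libraries, by -0.06 to -0.68. TMM scaling gave 0.02. With nuclei weighted equally, the ratio of MOL over NFOL passed 2-fold, at -1.01.

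Olig1 had its lowest lineage levels in the middle of the path. OPCs held 39.8 to 60.5 CPM over the libraries (median 49.0), COPs 19.0 to 32.6 (median 25.8), NFOLs 20.1 to 42.5 (median 31.2) and MOLs 13.8 to 77.6 (median 52.8). OPCs and COPs did not overlap. MOLs overlapped every other stage. Library 6, with 90 MOLs, lay at 13.8 and the other libraries at 44.0 or above, so that without it MOLs overlapped OPCs but neither COPs nor NFOLs. The log2 ratio of COP over OPC was -0.91 (-1.30 to -0.53) and below 0 in 6 of 6 libraries, and that of MOL over NFOL was 0.94 (0.74 to 1.15) and above 0 in 5 of 6. Both stayed within 2-fold. The second passed 2-fold in 2 alternatives, at 1.05 without the nuclei of highest depth and at 1.20 when each nucleus was weighted equally.

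Olig2, its neighbor on chromosome 16, followed another course and was highest in OPCs. OPCs held 20.7 to 50.1 CPM over the libraries (median 34.0), COPs 2.52 to 54.8 (median 21.9), NFOLs 22.1 to 35.0 (median 26.1) and MOLs 15.5 to 23.1 (median 18.8). The COP values were spread most widely, over 62 UMIs in all, with library 3 the lowest and library 1 the highest. The log2 ratio of MOL over OPC was -0.67 (-0.89 to -0.45) and below 0 in 6 of 6 libraries, within 2-fold. The intervals of OPCs, COPs and NFOLs overlapped along the path, and MOL over NFOL gave -0.42 (-0.69 to -0.15).

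Sox8, the close relative of Sox10, was highest in COPs. OPCs held 53.6 to 103 CPM over the libraries (median 72.2), COPs 81.0 to 133 (median 86.5), NFOLs 51.9 to 94.6 (median 74.2) and MOLs 42.9 to 67.3 (median 51.3). COPs lay above MOLs in every library without overlap, and above OPCs within each of the 6 libraries. The log2 ratios were 0.40 (0.18 to 0.61) for COP over OPC, -0.46 (-0.70 to -0.22) for NFOL over COP and -0.37 (-0.54 to -0.21) for MOL over NFOL, the last 2 below 0 in 6 of 6 libraries. None reached 2-fold, and the last was 0.01 when every marker list lost its most counted gene. Sox10, Olig1, Olig2 and Sox8 thus differed by at most 2.47-fold between their highest and lowest lineage gates.

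**Figure D1:**
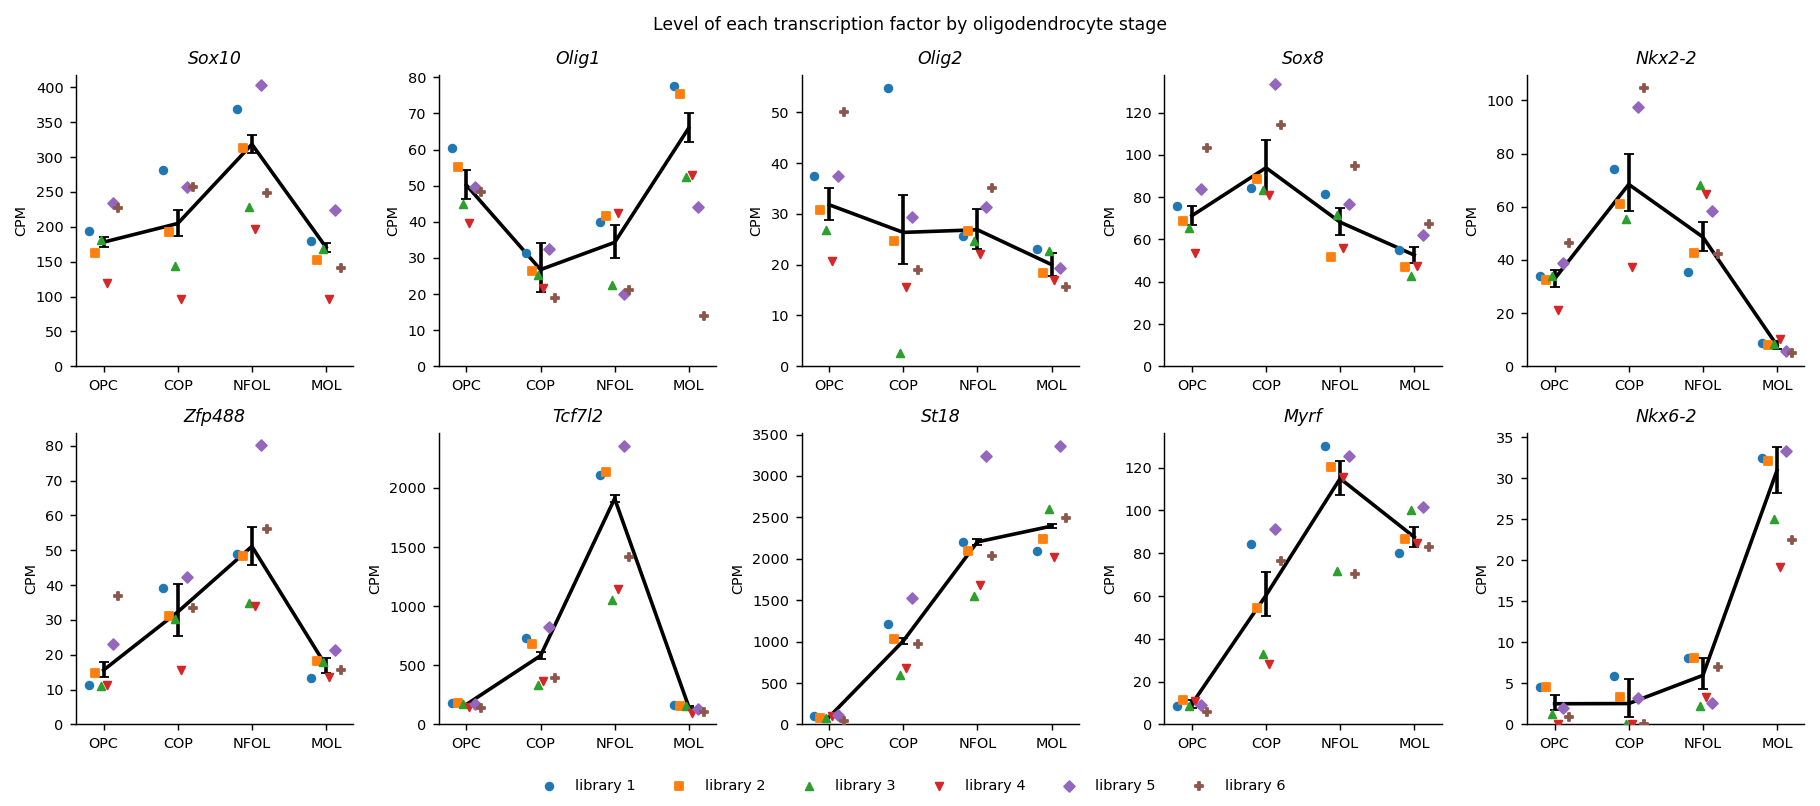
Level of each of the 10 factors (CPM, linear axis from 0) in OPC, COP, NFOL and MOL gates; symbols are the 6 libraries, and the black line and bars are all nuclei with 95% Poisson intervals. Tcf7l2 peaked in NFOLs at 1909 CPM, St18 reached 2395 CPM in MOLs, and Nkx6-2 was high in MOLs alone among the 4 stages, at 31.0 CPM.

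Over all nuclei, Nkx2-2 was highest in COPs and lowest in MOLs of the 4 stages. Over the libraries OPCs held 21.2 to 46.4 CPM (median 34.1), COPs 37.4 to 105 (median 67.6), NFOLs 35.4 to 68.4 (median 50.5) and MOLs 5.18 to 10.2 (median 8.17). No MOL value overlapped any earlier stage. The log2 ratio of NFOL over COP was -0.49 (-0.77 to -0.21), within 2-fold, below 0 in 4 of 6 libraries and above 0 in 2. The log2 ratio of MOL over NFOL was -2.62 (-2.94 to -2.32), a 6.16-fold lower level, and that of MOL over OPC was -2.06 (-2.36 to -1.76), both below 0 in 6 of 6 libraries. When every marker list lost its most counted gene, the first was 3.79-fold. The ratio of COP over OPC was 1.06 (0.79 to 1.32) and above 0 in 6 of 6 libraries. That step lay at the 2-fold limit, at 0.61 with these shortened lists (Neu4 left out for COPs), and at 1.00 (1.99-fold) without library 5.

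An antisense gene overlaps Nkx2-2 over 10161 bases and was counted separately. This gene, Nkx2-2os, was looked up because of the overlap, with its values in view. It stood at 38.7 CPM in OPCs, 45.0 in COPs, 105 in NFOLs and 173 in MOLs, the opposite order to Nkx2-2 at the last step. Its log2 ratio of MOL over NFOL was 0.72 (0.60 to 0.84). The sources used here do not say whether the counting used strand, so reads of the 2 genes may not be fully separated. Sox8, Nkx6-2 and Olig1 have shorter overlaps with genes of the opposite strand, of 329, 277 and 157 bases.

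Zfp488 was higher in COPs than in OPCs, peaked in NFOLs and was lower in MOLs. OPCs held 11.1 to 36.9 CPM over the libraries (median 13.1), COPs 15.6 to 42.3 (median 32.3), NFOLs 34.0 to 80.3 (median 48.6) and MOLs 13.4 to 21.2 (median 16.7). NFOLs and MOLs did not overlap, whereas the COP range overlapped both OPCs and NFOLs. MOL over NFOL gave a log2 ratio of -1.60 (-1.84 to -1.37), below 0 in 6 of 6 libraries. COP over OPC gave 1.05 (0.65 to 1.44), above 0 in 5 of 6 libraries and at 0.87 without library 1, 0.97 without library 3, 0.97 as the median over libraries and 0.98 when the interneuron markers were not used to set nuclei aside.

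Tcf7l2 rose at both steps up to NFOLs and fell in MOLs. OPCs held 143 to 182 CPM over the libraries (median 172), COPs 331 to 824 (median 534), NFOLs 1052 to 2354 (median 1760) and MOLs 101 to 166 (median 141). NFOLs overlapped no other stage, and COPs lay between OPCs and NFOLs in every library. Over all nuclei, the level was 169, 581, 1909 and 149 CPM. It was 3.44-fold higher in COPs than in OPCs (log2 1.78, 1.68 to 1.88), a further 3.28-fold higher in NFOLs (log2 1.72, 1.64 to 1.80) and 12.8-fold lower in MOLs than in NFOLs (log2 -3.68, -3.74 to -3.61), in 6 of 6 libraries at each step. MOLs were near the OPC level (log2 -0.18, -0.27 to -0.09) and below it in 6 of 6 libraries. After each nucleus was thinned to 2000 UMIs, 82.2% of NFOLs (80.0 to 84.3) held a Tcf7l2 UMI, against 19.3% of MOLs and 27.0% of OPCs. Before thinning these shares were 90.1%, 31.4% and 43.5%. In cortical excitatory neurons, its lowest gate, which had a median of 8156 UMIs, the share was 3.72% thinned and 10.6% unthinned.

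St18 rose from OPCs to NFOLs as Tcf7l2 did, but stayed high in MOLs. OPCs held 44.5 to 119 CPM over the libraries (median 89.8), COPs 593 to 1527 (median 1001), NFOLs 1546 to 3245 (median 2061) and MOLs 2016 to 3357 (median 2365). OPCs and COPs did not overlap, and nor did COPs and NFOLs, while NFOLs and MOLs did. St18 was 11.3-fold higher in COPs than in OPCs (log2 3.49, 3.39 to 3.60) and 26.8-fold higher in MOLs than in OPCs (log2 4.74, 4.66 to 4.83), in 6 of 6 libraries. With each marker list short of its most counted gene, the latter was 16.8-fold. The step from COP to NFOL was 2.19-fold (log2 1.13, 1.07 to 1.19), close to the limit, and was 1.95-fold with stricter gates, 1.98-fold without the nuclei of highest depth and 1.83-fold with nuclei weighted equally. MOL over NFOL gave a log2 ratio of 0.12 (0.09 to 0.15).

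Myrf, the driver of myelin genes, was low in OPCs and high from COPs on. OPCs held 5.68 to 11.6 CPM over the libraries (median 8.84), COPs 28.0 to 91.2 (median 65.2), NFOLs 70.1 to 130 (median 118) and MOLs 80.1 to 102 (median 85.7). OPCs overlapped no later stage, and the 3 later stages overlapped each other. Myrf was 6.32-fold higher in COPs than in OPCs (log2 2.66, 2.30 to 3.02) and 9.18-fold higher in MOLs than in OPCs (log2 3.20, 2.93 to 3.48), in 6 of 6 libraries. NFOL over COP gave 0.93 (0.67 to 1.20), just within 2-fold, and 1.03 without library 1, 1.02 without library 5 and 1.04 with another scaling of the gates (edgeR TMM). MOL over NFOL gave -0.39 (-0.52 to -0.26), within 2-fold and below 0 in 4 of 6 libraries.

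Nkx6-2, the homeodomain factor of myelinating cells, was the only one of the 10 at least 2-fold higher in MOLs than in NFOLs. Over the libraries OPCs held 0 to 4.62 CPM (median 1.64), COPs 0 to 5.87 (median 1.63), NFOLs 2.24 to 8.13 (median 5.20) and MOLs 19.2 to 33.4 (median 28.6). No MOL value overlapped an earlier stage. MOLs were 5.17-fold above NFOLs (log2 2.37, 1.91 to 2.87, in 6 of 6 libraries) and 12.3-fold above OPCs (log2 3.62, 3.10 to 4.18, in the 5 libraries with a UMI in both gates). The OPC and COP levels rested on 32 and 6 UMIs, too few to compare.

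Counted together, 9 of the 10 factors had at least 50 UMIs in COPs and OPCs combined, the limit for a call, and 5 of them (St18, Myrf, Tcf7l2, Nkx2-2 and Zfp488) were at least 2-fold higher in COPs, where 2.48% of 13461 genes were. None was 2-fold lower, against 4.82% of genes. The median log2 ratio of the 9 factors was 1.05, beside -0.03 over all genes. From COP to NFOL, 2 of 9 (Tcf7l2 and St18) were 2-fold higher, where 3.49% of 11839 genes were, and 0 were lower, against 1.98%. The split of all genes in that step was 413 higher and 234 lower, and 505 higher and 121 lower with TMM scaling, which raised every log2 ratio there by 0.11. From NFOL to MOL, 1 of 10 (Nkx6-2) was 2-fold higher and 3 (Tcf7l2, Nkx2-2 and Zfp488) were lower, where 4.76% and 4.08% of 14277 genes were, with a median log2 ratio of -0.41 for the factors and 0.05 for all genes. From OPC to MOL, 3 of 10 (St18, Nkx6-2 and Myrf) were higher and 1 (Nkx2-2) was lower, where 6.95% and 8.0% of 15055 genes were. Nkx6-2 lacked the UMIs for a call in the first 2 steps. Each library held all 4 stages, and the plot of ratios between stages shows the ratio within each library. The libraries mix both genotypes without a key and were not treated as replicates of 1 group, so no test was made, and the intervals cover counting error only.

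**Figure D2:**
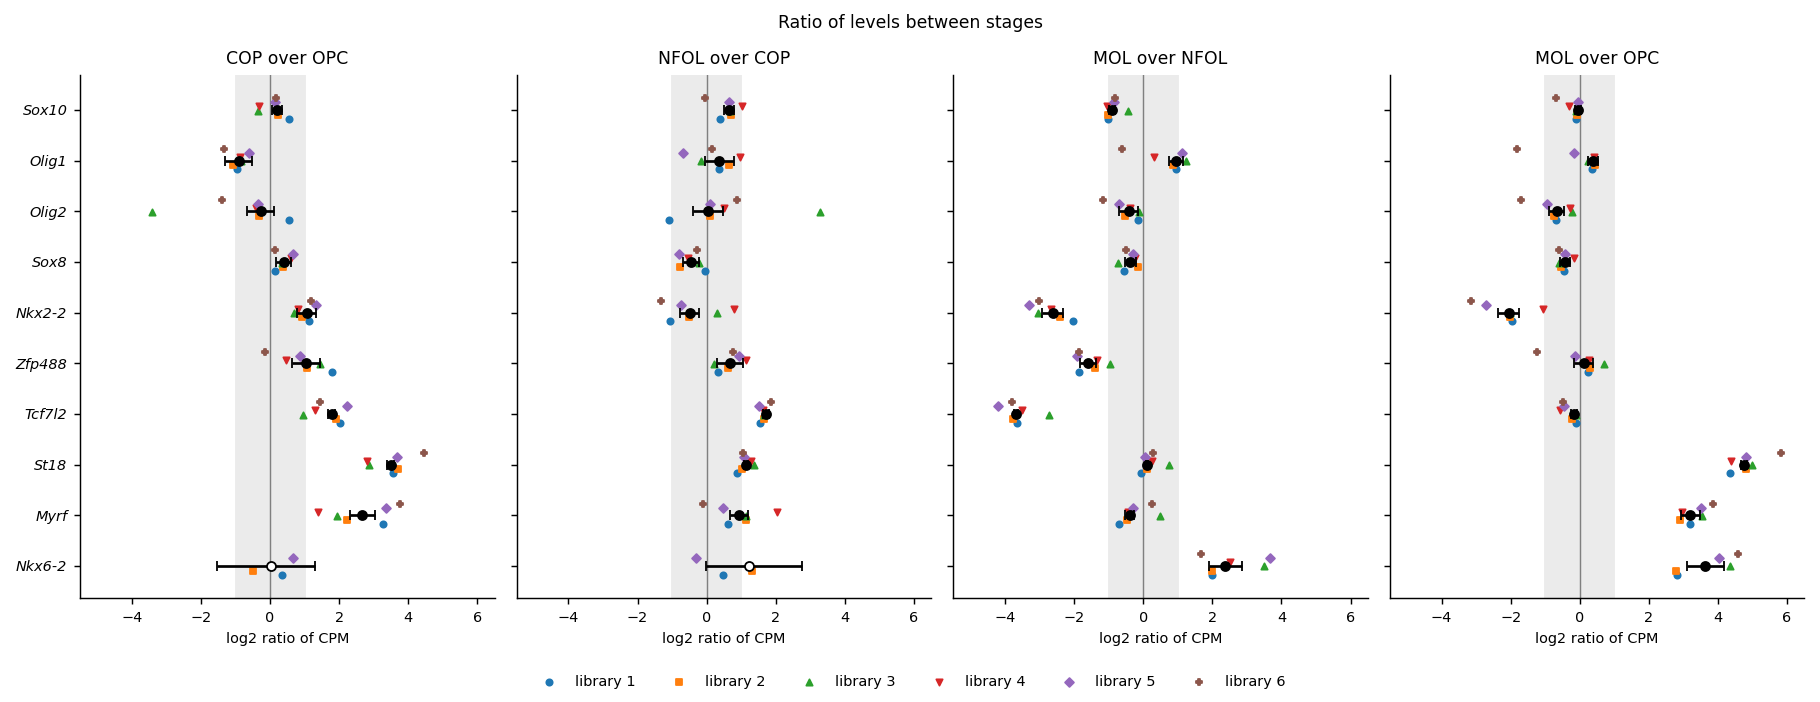
Log2 ratio of CPM for the 10 factors in the 4 comparisons of stages; black points and bars are all nuclei with exact 95% intervals, open points had under 50 UMIs, colored symbols are the libraries with a UMI in both gates, and grey shading marks the range within 2-fold. Tcf7l2 moved from 1.72 in NFOL over COP to -3.68 in MOL over NFOL, while St18 (0.12) and Myrf (-0.39) stayed within 2-fold in the latter.

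Beyond the lineage, the 10 genes differed in how much of their signal lay within it. St18, Myrf and Sox10 had 93.4%, 88.4% and 88.2% of their gated UMIs in the 4 lineage gates, Zfp488 83.4%, Nkx2-2 71.9% and Nkx6-2 68.4%. For Olig2, Sox8, Tcf7l2 and Olig1 the shares were 56.3%, 55.2%, 44.0% and 42.4%. Over all nuclei, those without a gate included, the lineage gates held 76.4% of St18, 68.6% of Myrf, 63.4% of Sox10, 59.9% of Zfp488, 43.1% of Nkx2-2, 41.3% of Nkx6-2, 30.3% of Olig2, 28.8% of Tcf7l2, 27.4% of Sox8 and 20.6% of Olig1 UMIs. Sox10, Olig2, Myrf, Zfp488, St18 and Sox8 stood below every lineage gate in each of the 12 other gates over all nuclei, although for St18 and Myrf the intervals of OPCs and ependymal cells overlapped, and St18 was higher in OPCs in 3 of 6 libraries. The same was true of 11 other gates for Nkx2-2, 7 for Olig1, 6 for Nkx6-2 and 4 for Tcf7l2.

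Tcf7l2 had its highest levels outside the lineage in neurons and astrocytes. Subcortical excitatory neurons, gated on Slc17a6, Shox2, Gbx2, Lhx9, Prkcd and Ntng1, held 423 to 572 CPM over the libraries (median 522). Astrocytes held 289 to 354 (median 327). In the order of all 16 gates these came next after NFOLs and COPs. Then came fibroblasts (227 CPM), ependymal cells (211) and endothelial cells (201), and neighbors among these 3 were not separated by their intervals. Choroid plexus (174 CPM), OPCs, mural cells (158), microglia (151) and MOLs formed a further run of neighbors with overlapping intervals. COPs and subcortical excitatory neurons were close, at 581 and 513 CPM, and COPs were higher in 3 of 6 libraries. The remaining neuronal gates came last: cortical interneurons (52.6 CPM), neuroblasts (38.8) and striatal projection neurons (21.4). The lowest gate was cortical excitatory neurons, at 13.5 CPM (11.3 to 15.9).

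**Figure D3:**
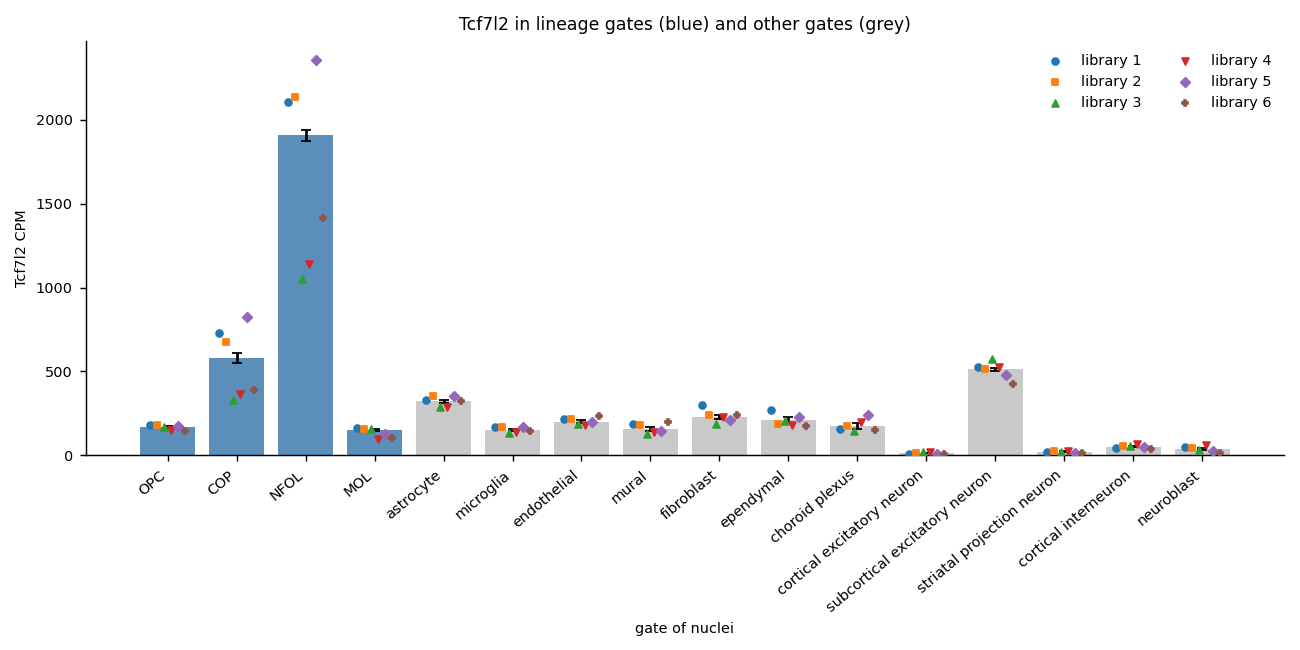
Tcf7l2 in the 16 gates (CPM, linear axis from 0); bars are all nuclei with 95% Poisson intervals, blue for the lineage and grey for the other gates, and symbols are the 6 libraries. NFOLs stood at 1909 CPM, subcortical excitatory neurons at 513 and astrocytes at 322, while cortical excitatory neurons were at 13.5.

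Sox8 had its highest level outside the lineage in astrocytes, 34.5 CPM (31.7 to 37.5), below MOLs in 6 of 6 libraries. Striatal projection neurons followed at 18.9 CPM, in 13.9% of nuclei (3.79% after thinning). St18 stood at 85.4 CPM in ependymal cells and 74.3 in neuroblasts, near its level in OPCs (89.5) and far below COPs. UMIs of every factor were counted in all 12 other gates, those of Olig1 from 8.55 CPM in subcortical excitatory neurons to 36.0 CPM in astrocytes. Per 100 nuclei these gates held 8.18 to 15.5 Olig1 UMIs, while their median depths ran from 2551.5 to 9871 UMIs. The part of free RNA in these counts was not tested. OPCs, COPs, NFOLs and MOLs held 22.2, 16.5, 17.9 and 38.0 per 100 nuclei. In CPM, the intervals of NFOLs (34.3) and astrocytes overlapped, as did those of COPs (26.8) and endothelial cells (28.6). After thinning to 2000 UMIs, 2.24% to 7.10% of nuclei in the other gates held an Olig1 UMI, against 10.3% of OPCs, 7.92% of COPs, 6.92% of NFOLs and 14.7% of MOLs. Before thinning these shares were 7.62% to 13.5% in the other gates and 18.9%, 15.0%, 14.8% and 27.8% along the lineage. On the CPM scale COPs and NFOLs lay within the range of the 7 other non-neuronal gates (23.8 to 36.0) and above the 5 neuronal gates (8.55 to 13.4). Per nucleus both lay above all 12 without thinning, COPs on 63 UMIs. After thinning, the NFOL share (6.92%) lay within the range of the 12. Nkx2-2 in MOLs (7.89 CPM) was likewise no higher than in astrocytes (9.32 CPM).

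**Figure D4:**
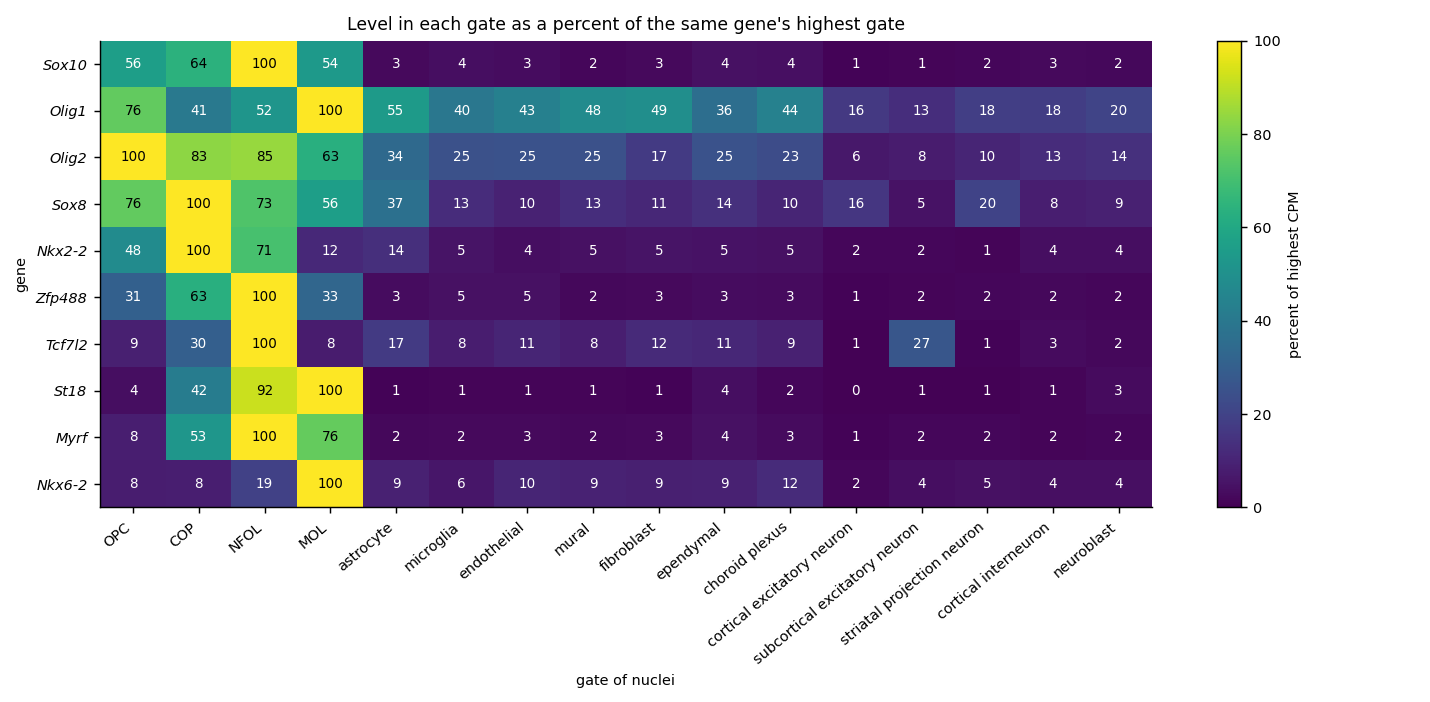
CPM of each factor (rows) in the 16 gates (columns) as a percent of the same gene's highest gate; color and printed number show the same value. Sox10, Myrf, St18 and Zfp488 were dark in every column outside the lineage. Astrocytes reached 54.6% for Olig1, 36.7% for Sox8 and 34.4% for Olig2, and subcortical excitatory neurons reached 26.9% for Tcf7l2.

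In single nuclei thinned to 2000 UMIs, the number of factors detected together was highest in NFOLs. The mean number of the 10 with a UMI was 1.11 in 2610 OPCs, 2.33 in 366 COPs, 2.83 in 1257 NFOLs and 1.80 in 2320 MOLs. At least 3 factors were seen in 9.0% of OPCs, 44.3% of COPs, 62.2% of NFOLs and 24.0% of MOLs, and in 0 to 1.12% of nuclei in the 12 other gates. No factor was seen in 31.4% of OPCs and 2.86% of NFOLs. The counts of factors include St18 and Tcf7l2, seen together in 73.7% of NFOLs and 41.3% of COPs, and were not made without them.

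St18 and Tcf7l2, the most counted of the 10 genes in the lineage gates, were also read together in the nuclei of each gate. Whether they met more often than their single shares imply was not tested. Both were seen in 3.26% of OPCs (2.61 to 4.01), 41.3% of COPs (36.2 to 46.5), 73.7% of NFOLs (71.2 to 76.2) and 14.6% of MOLs (13.2 to 16.1). Over the libraries the share with both was 2.31% to 3.89% in OPCs, 26.3% to 54.0% in COPs, 50.6% to 86.6% in NFOLs and 13.0% to 15.3% in MOLs. The COP and NFOL ranges overlapped, and the others did not. Tcf7l2 alone was seen in 23.7% of OPCs and 4.70% of MOLs. St18 alone was seen in 4.64% of OPCs and 62.5% of MOLs, the latter between 56.2% and 80% over the libraries (median 69.6%). In astrocytes and subcortical excitatory neurons, Tcf7l2 alone was seen in 42.9% and 52.8% and both in 2.16% and 1.21%. Myrf and Tcf7l2 were seen together in 7.65% of COPs and 17.5% of NFOLs, and 87.0% of NFOLs with a Myrf UMI also held Tcf7l2, against 22.0% of such MOLs. Tcf7l2 was seen in 82.2% of all NFOLs and 19.3% of all MOLs, close to its share among those with Myrf. Olig1 and Olig2 were each detected in few nuclei at this depth (10.3% and 7.01% of OPCs), and both together in 0.77% of OPCs, 1.64% of COPs, 0.32% of NFOLs and 0.43% of MOLs.

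**Figure D5:**
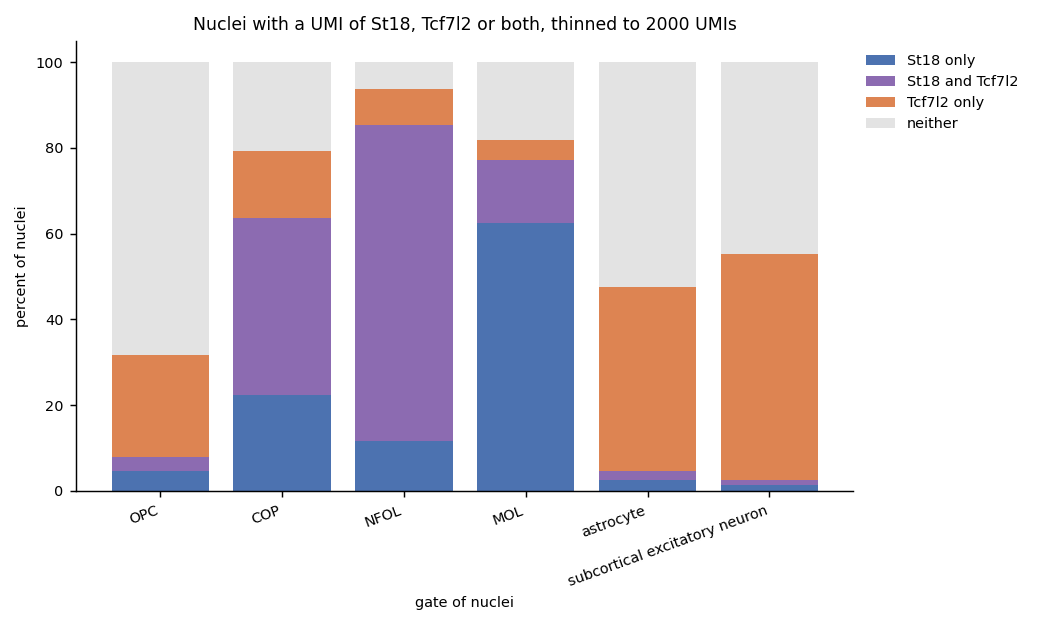
Percent of nuclei with a UMI of St18 alone, Tcf7l2 alone, both or neither, after thinning to 2000 UMIs, in the 4 lineage gates, astrocytes and subcortical excitatory neurons. Both genes were seen in 73.7% of NFOLs, St18 alone in 62.5% of MOLs, and Tcf7l2 alone in 52.8% of subcortical excitatory neurons.

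Among OPCs, 133 nuclei carried the markers of division (Top2a, Mki67 and others) and 2726 did not, with medians of 4572 and 3586.5 UMIs. St18 stood at 21.2 CPM (17 UMIs) in dividing OPCs and 94.1 in the rest, a log2 ratio of -2.15 (-2.94 to -1.47), lower in 6 of 6 libraries. Myrf had 0 UMIs in dividing OPCs and 10.2 CPM in the rest, at least 2.73-fold lower when 3 UMIs are taken as the floor for these nuclei. Sox10 (142 against 181 CPM) and Sox8 (46.1 against 72.9) were within 2-fold and, in CPM, lower in dividing nuclei in 6 of 6 libraries. Dividing nuclei were deeper, and per nucleus Sox10 was not lower, with 114 UMIs in the 133 dividing nuclei and 2144 in the 2726 others. Olig2 did not differ beyond counting error (34.9 against 31.6 CPM, log2 0.14, -0.47 to 0.70). Nkx2-2 gave -0.76 (-1.58 to -0.04) from 16 UMIs. Tcf7l2 gave -0.29 (-0.58 to -0.02) and, in CPM, was higher in dividing nuclei in 1 library. Per nucleus it was not lower, with 112 UMIs in the dividing nuclei and 2030 in the others. Olig1 (-0.40), Zfp488 (-0.35) and Nkx6-2 (-0.02) had intervals that crossed 0.

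Other regulators of the lineage were read from 3 lists. Of the progenitor-holding regulators (20 genes such as SoxD, Hes and Id genes), 0 were 2-fold higher and 3 lower of 19 with enough UMIs in COPs against OPCs, where 2.48% and 4.82% of all genes were. In NFOLs against COPs 1 was higher and 1 lower of 16 (3.49% and 1.98% of all genes), in MOLs against NFOLs 0 and 2 of 18 (4.76% and 4.08%), and in MOLs against OPCs 1 and 7 of 19 (6.95% and 8.0%). Their median log2 ratio in the 4 comparisons was -0.61, -0.01, 0.04 and -0.50, beside -0.03, -0.06, 0.05 and -0.09 over all genes. Sox6, a SoxD gene that opposes Sox10 in progenitors, held 1514 CPM in OPCs, 1348 in NFOLs and 144 in MOLs (log2 -3.22 for MOL over NFOL, -3.29 to -3.16, lower in 6 of 6 libraries). Sox5, its partner, gave -2.29 for MOL over OPC. Etv4 and Prrx1 were already lower in COPs, at -2.65 and -1.68, and stayed lower in MOLs, at -3.24 and -2.43. Hes5 and Etv5 were also lower in MOLs than in OPCs, at -1.01 and -1.38. Past 2-fold in other steps were Etv5 (-1.11 for NFOL over COP), Sox4 (-1.39 for MOL over NFOL) and Sox2, which was higher in NFOLs than in COPs (1.50) and in MOLs than in OPCs (1.69).

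Of the differentiation regulators and cofactors (24 genes), 1 was higher and 3 lower of 23 with enough UMIs in COPs against OPCs (2.48% and 4.82% of all genes), and 2 higher and 0 lower of 22 in NFOLs against COPs (3.49% and 1.98%). In MOLs against NFOLs 1 was higher and 1 lower of 23 (4.76% and 4.08%), and in MOLs against OPCs 3 and 1 of 23 (6.95% and 8.0%). Several of these counts were near the share over all genes. The median log2 ratios were 0.00, 0.08, -0.04 and 0.10, beside the same medians over all genes as above. Zeb2, a repressor that is needed for oligodendrocyte differentiation, was higher in COPs than in OPCs (1435 against 657 CPM, log2 1.13, 1.07 to 1.18). Zfp536 was higher in NFOLs than in COPs (1.23) and in MOLs than in NFOLs (1.44), reaching 1624 CPM. Creb5 was lower in COPs (16.1 CPM) than in OPCs (104 CPM), and then higher in NFOLs (314 CPM, log2 4.28, 3.82 to 4.79, in the 5 libraries with a value). Myt1, the relative of St18, ran against it, with 254 CPM in OPCs, 86.3 in COPs, 52.6 in NFOLs and 19.4 in MOLs (log2 -3.71 for MOL over OPC). MOL over OPC gave 2.78 for Zfp536, 2.47 for Creb5 and 1.10 for Zeb2. Sox17 gave -1.01 for COP over OPC from 6 and 65 UMIs, with an interval that reached 0.19.

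The Wnt genes around TCF7L2 (15 genes) had 1 member higher and 1 lower of 15 in COPs against OPCs (2.48% and 4.82% of all genes) and 2 higher and 0 lower of 14 in NFOLs against COPs (3.49% and 1.98%). In MOLs against NFOLs 2 of 15 were higher and 3 lower (4.76% and 4.08%), and in MOLs against OPCs 1 and 3 of 15 (6.95% and 8.0%). A count of 1 is close to these shares. The medians were -0.20, -0.01, 0.16 and -0.19. Tcf7l1, the repressive relative of Tcf7l2, moved in the same direction as it at each step. It stood at 54.0 CPM in OPCs, 117 in COPs, 366 in NFOLs and 66.0 in MOLs (log2 1.12, 1.64 and -2.47). Axin2, a feedback target of beta-catenin, was at 23.7 CPM in NFOLs and 9.26 in MOLs (log2 -1.35, -1.69 to -1.02), and Lgr5 gave -2.01 at that step. Daam2 was higher in NFOLs than in COPs (1.29) and, like Nkd1, higher in MOLs than in NFOLs (1.38 and 1.87). MOL over OPC gave 2.50 for Daam2, -2.64 for Lgr5 and -1.27 for Tcf7. Rnf43, which removes Wnt receptors, was lower in COPs (-1.14) and in MOLs (-2.72) than in OPCs.

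The genes most like each factor were taken over the 16 gates, by Pearson's r of log2(CPM + 1) among 16532 genes with at least 200 UMIs. The gates share libraries and markers of the lineage, so r is a description. Sox10 was most like Gm10863, Bcas1os2 and the oligodendrocyte connexin gene Gjc3 (r = 0.98, 0.97 and 0.97). Zfp488 was most like Bcas1os2, Plxnb3 and Bcas1 (0.98, 0.97 and 0.97), and Myrf like Plxnb3, the fatty acid hydroxylase gene Fa2h and Gjc3 (0.99, 0.98 and 0.98). Olig2 was most like Abtb2, Scrg1 and Bcas1 (0.94, 0.94 and 0.93), and Nkx2-2 like Chadl, Abtb2 and Usp16 (0.97, 0.96 and 0.95). Tcf7l2 was most like Ppnr (0.94), a transcript annotated inside an intron of Tcf7l2 on the same strand, whose reads may not be separate from it. After Ppnr came Cdyl and Tfcp2, at 0.87 and 0.85. St18 was most like Fam83d, Mad1l1 and Gm16212 (0.97 each), and Nkx6-2 like Piga, Sbf1 and the actin-severing gelsolin gene Gsn (0.96, 0.95 and 0.94). The 3 genes for Olig1 were Traf6, Kif13a and Wipf1 (0.94, 0.93 and 0.93), and those for Sox8 were 4930549C15Rik, Rnf144a and Zfp932 (0.94, 0.92 and 0.91). Among the factors themselves, Myrf with St18 and Sox10 with Zfp488 were the most alike (both 0.98), and Tcf7l2 with Sox8 and Nkx2-2 with Nkx6-2 the least (both 0.38).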

How the data were processed

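Nuclei of frozen forebrain from 6 mice were profiled with the 10x single cell 3′ v2 chemistry. The authors deposited 1 matrix of raw UMI counts, 32285 genes by 75878 barcodes and 497750379 UMIs, whose header names Cell Ranger 6.0.0. The submitters' processing notes name Cell Ranger 2.1.1 and mm10, and the study's methods describe STARsolo v2.7.9a on GRCm38, EmptyDrops and DoubletFinder. The sources used here do not say which of these made the matrix, whether doublets were removed before deposit or whether counting used strand. No doublet caller was run here, and nuclei that met a second, unrelated marker list were set aside.

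The 10 genes, the marker lists and the regulator lists were chosen with earlier results of these data known. Nuclei with at least 10% mitochondrial UMIs (11) were removed. A nucleus entered a gate with at least 3 UMIs of at least 2 list genes and an enrichment of at least 3. UMIs were summed per gate and given as CPM with exact 95% Poisson intervals. Ratios had exact conditional binomial intervals and shares exact Clopper-Pearson intervals, which cover counting error only. Shares of nuclei were compared after thinning to 2000 UMIs. A ratio was called at 2-fold or more with at least 50 UMIs over both gates. Of each regulator list, at most 6 genes past that limit were named per comparison, by size, beside Hes5, Etv5 in MOLs against OPCs and Nkx2-2os, which were named after their values were seen. One gene counted in a regulator list is not reported by name here. The 3 genes most like each factor, other than factors and markers, were ranked by Pearson's r over the gates. Tools were Python 3.11.15 (numpy 2.4.6, scipy 1.17.1) and, for TMM factors as an alternative scaling, edgeR 4.0.16, and the scripts were tested on simulated data. Alternatives covered gate limits, markers, depth, weighting, libraries, scaling and count filters. The genotypes were not compared because no key from library to mouse was available in the sources used here.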

Additional observations from a re-analysis of the deposited data

How the results depend on the processing

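No paired analysis was possible because the replicate numbers in the labels belong to WT and Npc1-/- mice and no key ties them to the libraries. This concerns the genotypes alone: stages were paired by library and given as counts of libraries, without a test. Of 38 ratios of the factors with enough UMIs, each of the 14 alternatives left at least 35 on the same side of 2-fold, and no call turned its direction. Among ratios within 2-fold, 5 changed sign in some setting, none of them larger than 0.37 in size: Olig2 in the first 2 steps, Sox8 for MOL over NFOL, and Sox10 and Zfp488 for MOL over OPC. Without the most counted markers, Nkx2-2 for MOL over NFOL and St18 for MOL over OPC moved by over 1.5 times, to 3.79-fold and 16.8-fold. The use of interneuron markers and of shared barcodes was varied after seeing the data. From COP to NFOL, 1 factor was 2-fold higher under stricter gates, without the deepest nuclei or with nuclei weighted equally, where St18 fell short. From NFOL to MOL, 2 were higher in the latter 2 settings, where Olig1 joined Nkx6-2. With a library left out, the factors higher numbered 4 to 5 from OPC to COP and 2 to 3 from COP to NFOL. A minimum of 500 UMIs left 3 factors higher in COPs than in OPCs. The counts over all genes followed the UMI minimum. With 1 UMI, 2216 were higher and 5105 lower for COP over OPC, 3817 and 2587 for NFOL over COP, 4165 and 2689 for MOL over NFOL, and 3547 and 3709 for MOL over OPC. With 500 UMIs, the counts were 129 and 158, 164 and 39, 318 and 310, and 579 and 555. TMM scaling left 121 genes lower for NFOL over COP. Few UMIs were counted for Nkx6-2 in OPCs and COPs, 32 and 6, and for Olig2 in COPs, 62.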

Other observations

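Tcf7l2 and other factors differed between the libraries, which the labels put in no group. In NFOLs, its level was 2108, 2138, 1052, 1141, 2354 and 1412 CPM in libraries 1 to 6, and in COPs it was 728, 678, 331, 368, 824 and 390 CPM. In both gates libraries 1, 2 and 5 stood above libraries 3, 4 and 6. The same libraries stood above the others in NFOLs for Sox10 (368, 313, 229, 197, 403 and 249 CPM), St18 (2202, 2093, 1546, 1680, 3245 and 2029 CPM) and Myrf (130, 121, 71.7, 116, 126 and 70.1 CPM), and in COPs for St18 (1208, 1031, 593, 685, 1527 and 971 CPM). In OPCs the Tcf7l2 values were 178, 182, 170, 149, 175 and 143 CPM. This order of libraries did not hold everywhere. In COPs, library 6 stood above library 2 for Sox10 (257 and 192 CPM) and Myrf (76.2 and 54.3 CPM). In OPCs the order failed for St18 (103, 79.6, 82.3, 97.3, 119 and 44.5 CPM) and Sox10 (194, 163, 182, 120, 234 and 227 CPM). It also failed in MOLs, with Tcf7l2 at 166, 155, 159, 101, 128 and 102 CPM and St18 at 2094, 2237, 2604, 2016, 3357 and 2492 CPM. The NFOL markers that set the gate stood at 3500, 3537, 2573, 2459, 4387 and 2989 CPM in NFOLs of the same libraries, the MOL markers at 1644, 1417, 559, 522, 1638 and 771 CPM, and the numbers of NFOLs were 311, 383, 162, 122, 264 and 72. The part of these in the levels of the factors was not tested.

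Nuclei that entered no gate held 58.6% of the UMIs of all genes. They held 40.1% of all Olig1 UMIs and 41.9% of all Sox8 UMIs, and 11.6% of St18 and 14.9% of Myrf UMIs, each below that share.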
